A study of Mus musculus with 5 samples.

Results

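Promoters that had an H3K27me3 peak under both PRC2 inhibitors were examined in mouse embryonic fibroblasts (MEFs). They were taken as the peaks of the H3.3 K27M list on chromosomes 1 to 19 that overlapped a peak of the EZHIP list by at least 1 bp and held the start site of at least 1 protein-coding gene. A start site was the 5′ end of a gene in the GENCODE vM1 annotation of the mm9 genome. In all, 1386 of the 3338 autosomal K27M peaks met this rule (41.5%, 95% exact interval 39.8 to 43.2%), out of 3736 K27M peaks on all chromosomes. Of the other autosomal K27M peaks, 1105 were shared with EZHIP but held no start site, 260 held a start site but met no EZHIP peak, and 587 did neither. The peaks were thus chosen by the called positions of K27M and EZHIP peaks, and their widths and mutual overlap at these sites are given as a description. The K27R peaks, the DNA sequence, the genes and their direction of transcription were not part of the rule.

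H3K27me3 was profiled by ChIP-Seq after crosslinking and MNase digestion. The MEFs came from a mouse embryo with loxP sites around exons of Eed, which encodes a PRC2 subunit, and all lines analysed here carried this floxed allele. Lentivirus was used for stable expression of H3.3 K27M, of human EZHIP, or of H3.3 K27R, which has arginine in place of the methylated lysine and served as the reference. Each line gave 1 library, and neither the unmodified control nor the Eed deletion line, a single clone, was analysed here. The lists give peak positions without heights or read counts, which leaves the depth unknown, and without replicates no test between lines was made. Intervals on shares (exact) and medians (order statistics) cover counting error only and treat peaks as independent.

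PRC2 places methyl groups on lysine 27 of histone H3, and the trimethylated form marks the promoters of silenced developmental genes. In mammals PRC2 is recruited mainly at CpG islands, stretches rich in the CG dinucleotide that lie at many promoters and lack DNA methylation. From there the mark can spread over neighboring nucleosomes, because the EED subunit binds trimethylated histone tails and stimulates the enzyme. Both H3 K27M and EZHIP bind PRC2 and inhibit it. Of 12 fibroblast genes checked for the labelled cell type, 11, among them Col1a1, Vim and Prrx1, had no H3K27me3 peak at the start site in any list, and Pdgfra lay in a shared promoter peak. The epithelial genes Krt8 and Krt18 had no peak either, Cdh1 had a K27R peak only and Epcam lay in a shared promoter peak. Of 4 endothelial genes, Kdr and Tie1 had a K27R peak only. The neural genes Sox2, Olig2 and Neurod1 and the blood regulator Tal1 lay in shared promoter peaks, while the blood marker Ptprc and the pluripotency genes Pou5f1 and Nanog had no peak.

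The sequence before the start site is shown for 1 gene of each of 4 classes, so that the CG content can be seen. Each window covers the 300 bp upstream of the start site in mm9 and is written 5′ to 3′ along the gene, with every CG in capitals. CG reads the same on both strands, so that 1 count serves both. Lhx6, Krt79 and Bmp4 sit at the median CG count of their class, while Jag2 has the highest count in shared promoter peaks and is an extreme of its class, not a typical member to be set against the other 3. Jag2, a Notch ligand in a shared promoter peak (chr12:114167707-114168006, minus strand), had 63 CG, a count reached by 0.0327% of all 21418 protein-coding start sites. Lhx6, a LIM homeobox gene in a K27M-only peak (chr2:35960929-35961228, minus strand), had 15, which 37.8% reached. Krt79, a keratin with a K27R peak only (chr15:101770756-101771055, minus strand), had 4, which 72.4% of all start sites reached. Bmp4, a secreted growth factor with no peak in any list (chr14:47010345-47010644, minus strand), had 11, which 47.7% reached.
Jag2: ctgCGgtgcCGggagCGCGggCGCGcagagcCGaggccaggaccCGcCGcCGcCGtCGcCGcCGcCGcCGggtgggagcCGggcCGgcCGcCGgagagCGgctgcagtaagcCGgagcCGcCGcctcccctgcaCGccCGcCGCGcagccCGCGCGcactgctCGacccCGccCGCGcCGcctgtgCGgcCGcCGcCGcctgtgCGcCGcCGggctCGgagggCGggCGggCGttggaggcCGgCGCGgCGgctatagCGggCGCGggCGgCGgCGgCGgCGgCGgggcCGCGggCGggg
Lhx6: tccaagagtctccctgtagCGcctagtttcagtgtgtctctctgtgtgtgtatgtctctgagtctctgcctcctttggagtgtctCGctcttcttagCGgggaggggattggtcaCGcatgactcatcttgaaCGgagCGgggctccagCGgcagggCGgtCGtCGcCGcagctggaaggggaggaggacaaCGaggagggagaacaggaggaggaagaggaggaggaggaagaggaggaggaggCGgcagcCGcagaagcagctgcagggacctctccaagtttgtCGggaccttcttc
Krt79: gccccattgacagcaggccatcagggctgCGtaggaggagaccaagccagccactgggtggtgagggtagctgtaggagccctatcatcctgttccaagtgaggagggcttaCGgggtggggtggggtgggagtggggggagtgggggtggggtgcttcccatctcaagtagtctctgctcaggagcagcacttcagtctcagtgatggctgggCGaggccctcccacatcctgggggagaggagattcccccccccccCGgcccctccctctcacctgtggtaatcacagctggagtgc
Bmp4: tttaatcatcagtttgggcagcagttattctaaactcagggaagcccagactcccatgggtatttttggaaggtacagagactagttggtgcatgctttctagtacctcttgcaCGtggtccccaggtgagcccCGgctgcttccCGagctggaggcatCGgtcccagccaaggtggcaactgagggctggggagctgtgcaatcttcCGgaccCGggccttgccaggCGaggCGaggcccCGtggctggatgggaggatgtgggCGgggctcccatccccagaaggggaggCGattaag

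Over the 1637 start sites in shared promoter peaks, the median was 15 CG in these 300 bp (95% interval 14 to 16, quartiles 7 and 25). Start sites in K27M-only peaks had the same median of 15 (interval 13 to 17, 278 start sites). Start sites with an EZHIP peak outside K27M peaks had 9, those with a K27R peak alone had 4, and those with no peak had 11. The shared promoters were thus richer in CG than promoters marked in K27R cells alone and about as rich as K27M-only promoters. At least 15 CG were present at 51.0% of start sites in shared promoter peaks, 16.6% of those in K27R peaks alone and 37.8% of all start sites.

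**Figure D1:**
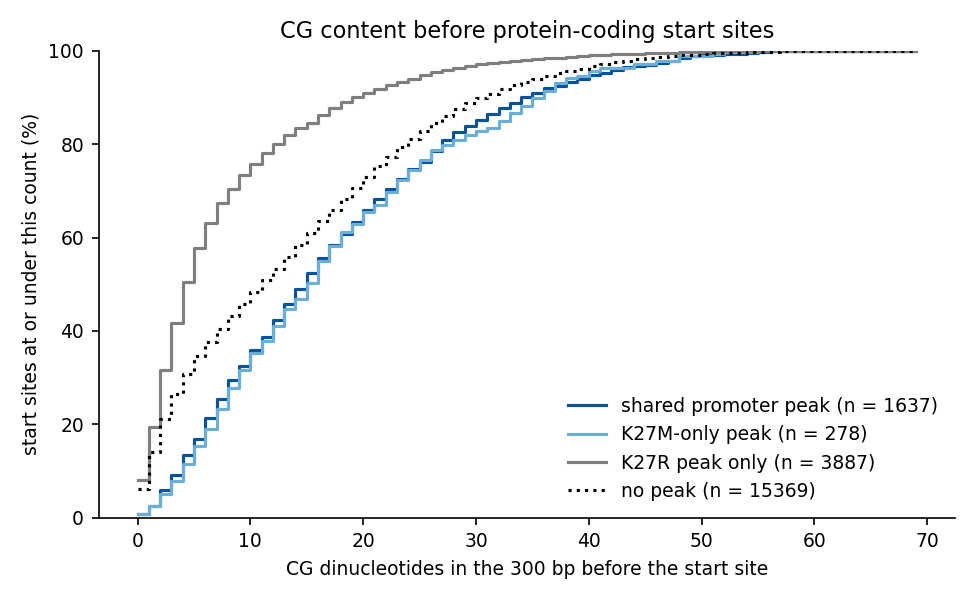
Cumulative share of protein-coding start sites (percent) by the number of CG dinucleotides in the 300 bp before the start site, for 4 classes of start site. The curves of shared promoter peaks and K27M-only peaks lie together with medians of 15, to the right of start sites with no peak (median 11) and with a K27R peak only (median 4).

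CpG islands gave the same order. Of all protein-coding start sites, 46.7% lay inside an island, and of those with no peak in any list 51.1%. The share was 61.6% at shared promoter peaks (1009 of 1637, interval 59.2 to 64.0%), 64.7% in K27M-only peaks (interval 58.8 to 70.4%), 43.3% under EZHIP peaks outside K27M peaks and 21.8% in K27R peaks alone. A CpG island lay somewhere in 1261 of the 1386 shared promoter peaks (91.0%, interval 89.3 to 92.4%) and in 87.7% of K27M-only promoter peaks (interval 83.1 to 91.4%). It lay in 29% of shared peaks that held no start site. More than 1 island was found in 28.9% of shared promoter peaks and in 13.1% of K27M-only promoter peaks. The latter were narrower (median 4.4 kb against 12 kb) and had more island sequence per length, with a median of 179 bp per kb against 76.4 bp per kb.

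Within the shared promoter peaks, EZHIP peaks lay over island sequence more than over the rest. EZHIP covered 91.3% of the island bases in these peaks and 68.9% of the other bases. Of the 2136 islands they held, 1979 were touched by an EZHIP peak (92.6%, interval 91.5 to 93.7%). Islands made up 8.27% of the bases that EZHIP covered and 1.87% of the bases it left. These values are a description, since the rule chose the peaks by EZHIP overlap. EZHIP lay inside both K27M edges in 65.1% of them, so that sequence away from the edges was covered more. Position in the peak was not accounted for. Where a shared promoter peak held more than 1 EZHIP peak, 343 of 758 EZHIP peaks had an island (45.3%), so that the larger number lacked one.

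In the K27R list, which the rule did not use, all 1386 shared promoter peaks overlapped exactly 1 region. The peak lay wholly inside this region in 1339 cases (96.6%, interval 95.5 to 97.5%). The other 47 reached a median of 0.4 kb past it, at most 5.6 kb at Grin2c, a subunit gene of the NMDA glutamate receptor. The shared promoter peaks thus lay almost wholly where K27R cells had the mark, and this was not particular to them. The share wholly inside 1 region was 98.5% for shared peaks without a start site. For K27M-only peaks it was 95% with a start site and 92.2% without one. The shared promoter peaks sat in 1187 of 12093 autosomal K27R regions (9.82%) and in 34.5% of the 3437 K27R regions with a start site. In 1030 regions there was 1 shared promoter peak, and the most in 1 region was 7. The closest neighbors in the K27R list lay 0 bp apart and were counted as separate regions.

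K27R regions with a shared promoter peak were wide, with a median of 101 kb (interval 93.4 to 109.6 kb). The 2251 K27R regions with a start site and no shared promoter peak had a median of 37.4 kb (interval 34.6 to 40 kb); wider regions offer more room for such a peak. Of the regions with a shared promoter peak, K27M peaks covered a median of 19% (quartiles 9.30 and 38.3%) and EZHIP peaks 14.5% (quartiles 7.48 and 28.3%). For the 1339 peaks wholly inside, the nearer edge of the region lay a median of 17.8 kb from the peak and the farther edge 73.0 kb. Of these, 95 (7.09%) came within 1 kb of an edge, while the other 47 peaks crossed it.

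The K27M peaks had a median width of 12 kb (interval 11.4 to 12.8 kb, quartiles 6.85 and 23.6 kb), from 1.2 to 319 kb. Inside them, EZHIP peaks spanned a median of 8.0 kb and covered a median of 73.5% of the peak (quartiles 56.2 and 91.3%). Together the 1386 peaks spanned 28.0 Mb, of which 19.7 Mb (70.4%) lay under EZHIP. EZHIP covered the whole K27M peak in 216 cases (15.6%) and less than 25% of it in 42 (3.03%). Most often EZHIP was the shorter of the pair on either side: its outermost edges lay inside both K27M edges in 902 peaks (65.1%), past 1 edge in 301 and past both in 183. Over the 2772 edges, the median distance from the K27M edge in to the EZHIP edge was 1.0 kb.

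**Figure D2:**
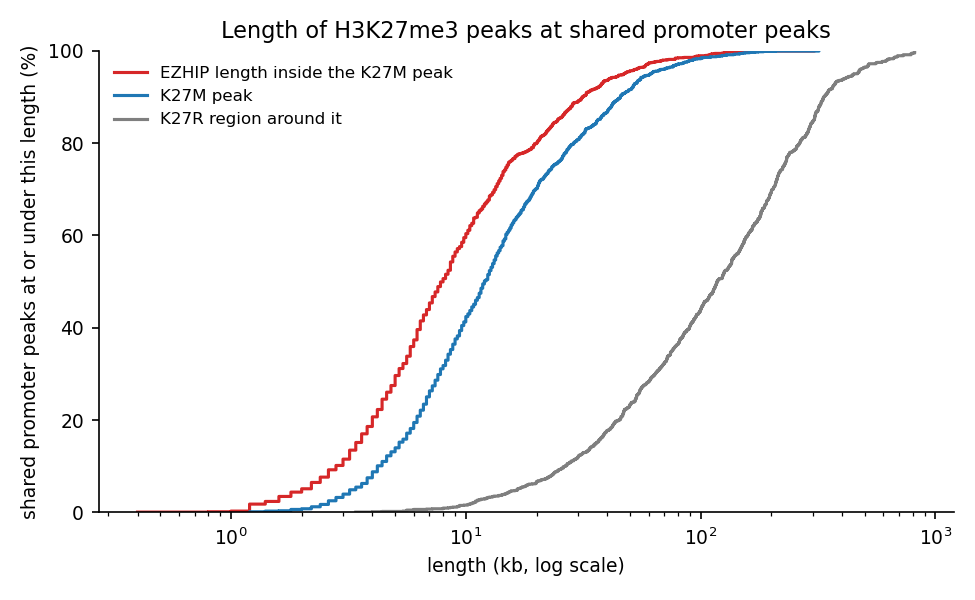
Cumulative share of the 1386 shared promoter peaks (percent) by length in kb on a log scale, for the EZHIP length inside the K27M peak (median 8.0 kb), the K27M peak (median 12 kb) and the K27R region around it (median 117.6 kb counted once per peak). The K27R curve lies far to the right of both inhibitor curves over the whole range.

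The share that EZHIP covered was highest in narrow peaks, at a median of 94.2% for 182 K27M peaks under 5 kb, and lay between 68.3 and 75.3% in the 4 wider classes. EZHIP was broken into more than 1 peak in 284 cases (20.5%). This went from 0 of 182 peaks under 5 kb, with an exact upper limit of 2.01%, to 76.9% of the 117 peaks of at least 50 kb. Both values in narrow peaks are set in part by the rule, since no EZHIP peak was narrower than 1.2 kb. A narrow K27M peak that meets an EZHIP peak has little room for low cover or for a second one. The lists joined neighbors at different distances, since the closest neighbors in the K27M list were 5200 bp apart and those in the EZHIP list 1200 bp, and joining EZHIP peaks up to 5000 bp apart lowered the 20.5% to 8.73%. K27M width and EZHIP length ranked alike over the 1386 peaks (Spearman rho 0.889, a description, since EZHIP length is bounded by the width). Width and island sequence in the peak had a rho of 0.508, also bounded by width.

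At the limits of the rule, the smallest EZHIP overlap was 0.4 kb, at Camk2n2, an inhibitor of a calcium-dependent kinase. Just outside, the K27M peak over Gm10318 ended where an EZHIP peak began, and that over Myrip lay 1800 bp from one. The start site of Ccdc147 lay 1 bp from the edge of its peak on the inside, and the shared peaks at Rgs9bp and Slc17a6 missed theirs by 1 bp.

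Around the start site itself, the peaks of both inhibitors narrowed to a few kb of a much longer K27R region. Of the 1637 start sites, 1458 lay inside an EZHIP peak (89.1%, interval 87.5 to 90.5%) and 1635 inside a K27R region. The 179 start sites outside EZHIP lay a median of 0.897 kb from the nearest EZHIP peak. Fewer of them were inside an island (46.9%, interval 39.4 to 54.5%) than of those under EZHIP (63.4%, interval 60.9 to 65.9%), and their median CG count was 12 against 15. They also lay nearer the edge of the K27M peak, at a median of 2.90 kb against 4.68 kb, which was not accounted for.

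Among 1098 peaks with a single start site that lay in all 3 lists, the K27M peak reached a median of 4.75 kb upstream and 5.84 kb downstream. The EZHIP peak reached 3.31 kb upstream and 4.41 kb downstream, and the K27R region 38.2 and 55.1 kb. All 3 therefore extended farther into the gene than away from it, by the medians. The downstream side was the longer in 63.8% of K27M peaks (interval 60.8 to 66.6%), 66.8% of EZHIP peaks (interval 63.9 to 69.5%) and 57.9% of K27R regions (interval 54.9 to 60.9%). The difference between K27M and EZHIP was even, with a median of 1.2 kb on each side.

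**Figure D3:**
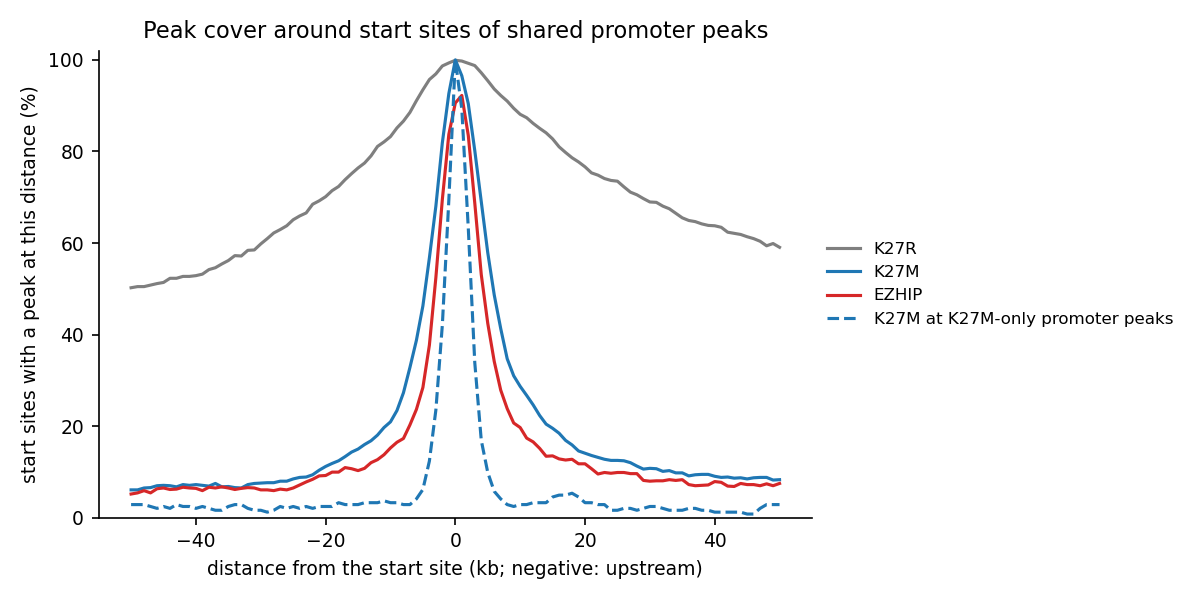
Percent of start sites with a peak at each distance in kb from the start site along the gene (negative values upstream), for 1212 shared promoter peaks with 1 start site, with K27M at K27M-only promoter peaks as a dashed line. At 10 kb upstream, a K27R region was still present at 83.3% of start sites, a K27M peak at 21% and an EZHIP peak at 15.3%.

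Most shared promoter peaks held 1 start site (1212, or 87.4%), 139 held 2, and 35 held 3 or more. Where there was 1 start site, the peak covered a median of 23.7% of the gene body in K27M and 17.6% in EZHIP, while K27R covered 100%. The whole gene lay inside the K27M peak in 261 cases (21.5%). Of the peaks with 2 start sites, 43 pairs were divergent, 46 convergent and 50 on the same strand.

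Among the shared promoter peaks, Pax2, a paired box factor of kidney and midbrain development, had the widest, of 319 kb (chr19:44652201-44971200), with 4 EZHIP peaks over 95.7% of it and 17 CpG islands. The peak over Cd40, 1700025C18Rik and Cdh22 spanned 208.4 kb (chr2:164879601-165088000) and held 9 EZHIP peaks over 81.5%. The homeobox gene Uncx had a peak of 185.2 kb (chr5:139978801-140164000) with 7 EZHIP peaks over 72.2%. Gsx1, Pdx1 and Cdx2, homeobox factors of forebrain, pancreas and intestine, shared a peak of 170.2 kb (chr5:147977401-148147600) in which EZHIP covered 65.7%. A peak of 175.4 kb on chromosome 17 held H2-T9 and other class I histocompatibility genes of near-identical sequence, whose read placement is uncertain. The narrowest, of 1.2 to 1.6 kb, lay over Slc24a2, Ngb, Nxph2, Susd1 and Fam5b, and EZHIP covered 75 to 85.7% of each.

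**Figure D4:**
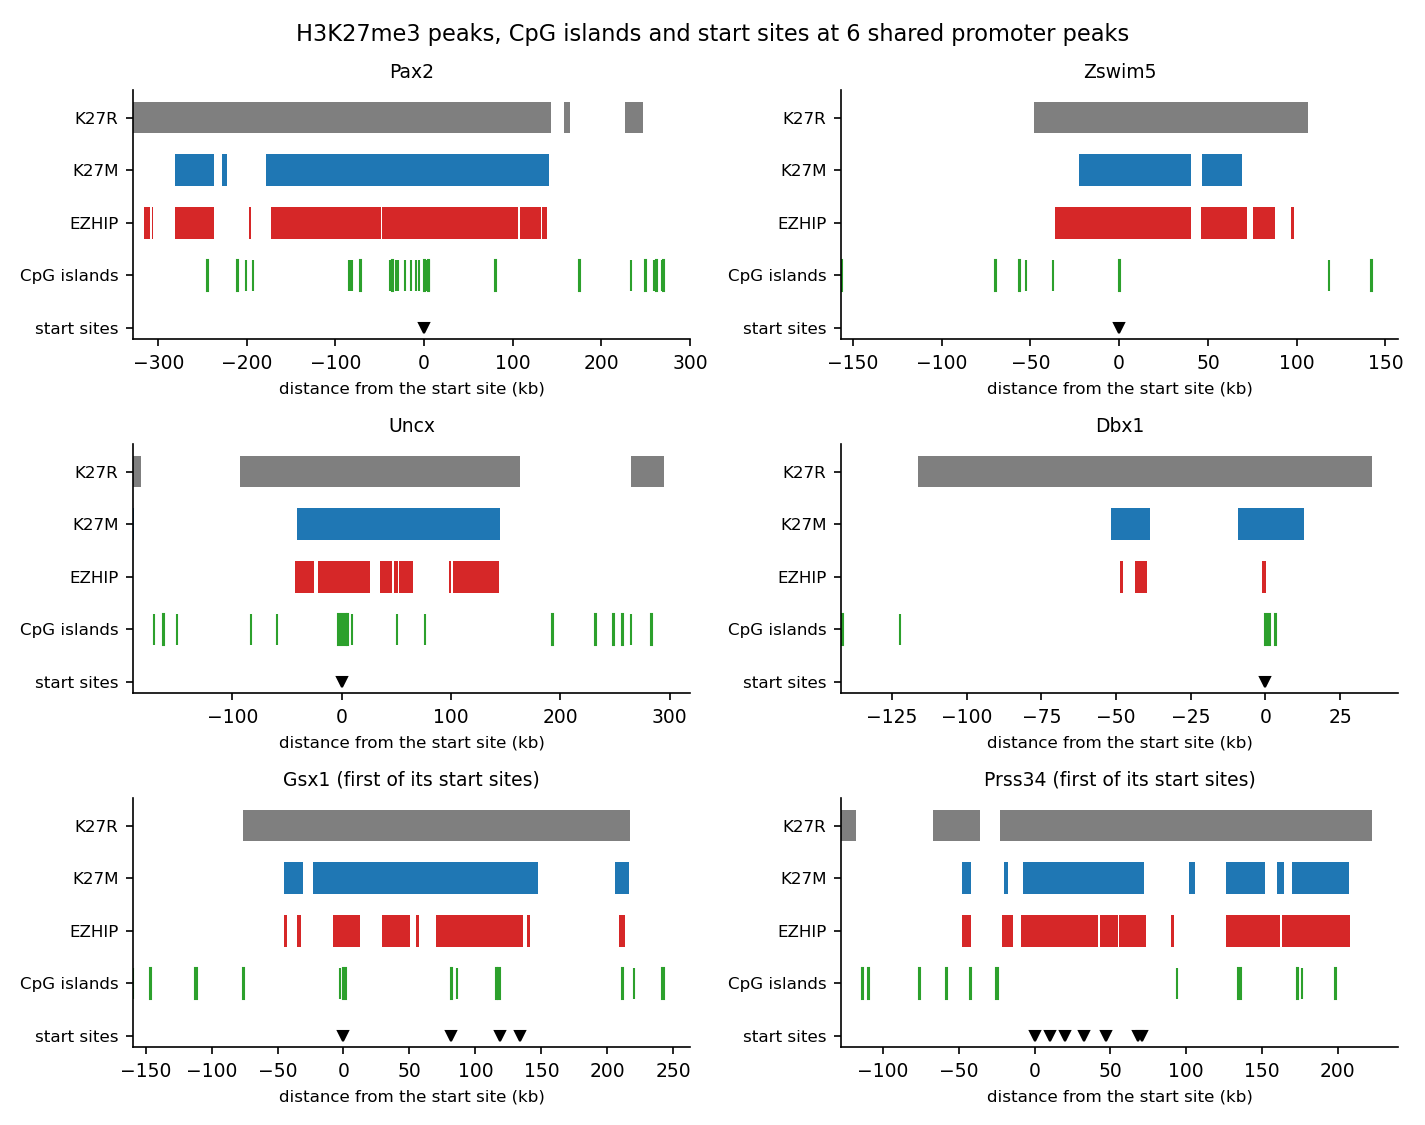
Maps of 6 loci with distance in kb from the start site along the gene on the horizontal axis, and bars for K27R regions, K27M peaks, EZHIP peaks and CpG islands (drawn with a minimum line width), with triangles for start sites inside the shared promoter peak. EZHIP broke into 7 peaks over the single K27M peak at Uncx, covered all of it at Zswim5, left 1 peak of 1.2 kb at the start site of Dbx1 and covered 97.0% of the island-free tryptase cluster at Prss34.

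EZHIP cover varied among wide peaks as well. Of 814 peaks of at least 10 kb, 49 lay wholly under EZHIP, of which the widest were those over Zswim5 (63.2 kb), Ikzf3 with Zpbp2 (53.8 kb), Ttbk1 (52.4 kb), Alox12e with Alox15 (47.4 kb) and the blood regulator Lmo2 (40.6 kb). The lowest cover was found at 4930467E23Rik (1.37% of 87.4 kb), Gm15319 (4.47% of 76.0 kb), Dbx1 (5.41% of 22.2 kb), Heatr7b1 (5.63% of 56.8 kb) and Fcgr1 (5.76% of 27.8 kb). Only Dbx1, a homeobox gene of spinal interneurons, had its start site under EZHIP among these 5. Its EZHIP peak spanned 1.2 kb. The peaks over 4930467E23Rik and Gm15319 were neighbors on chromosome 8.

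Gene families were followed through 43 lists fixed by symbol. Of all 21281 gene symbols, 1629 had a start site in a shared promoter peak (7.65%). By the rule this share says where the peaks were, and it serves as the background here. Most of these 1629 genes, 1252 of them, were on none of the lists. A start site lay in a K27R peak for 28.2% of symbols, and 27.1% of these 6010 were in a shared promoter peak. The transcription factor lists lay above both: 201 of 372 genes were in a shared promoter peak (54.0%), which was 77.9% of the 258 with a K27R peak. They made up 12.3% of the genes in shared promoter peaks (interval 10.8 to 14.0%), 6.91% of the genes in K27M-only promoter peaks (interval 4.21 to 10.6%) and 0.879% of those in K27R peaks alone. Neighboring list genes often shared a peak, so that genes are not independent.

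**Figure D5:**
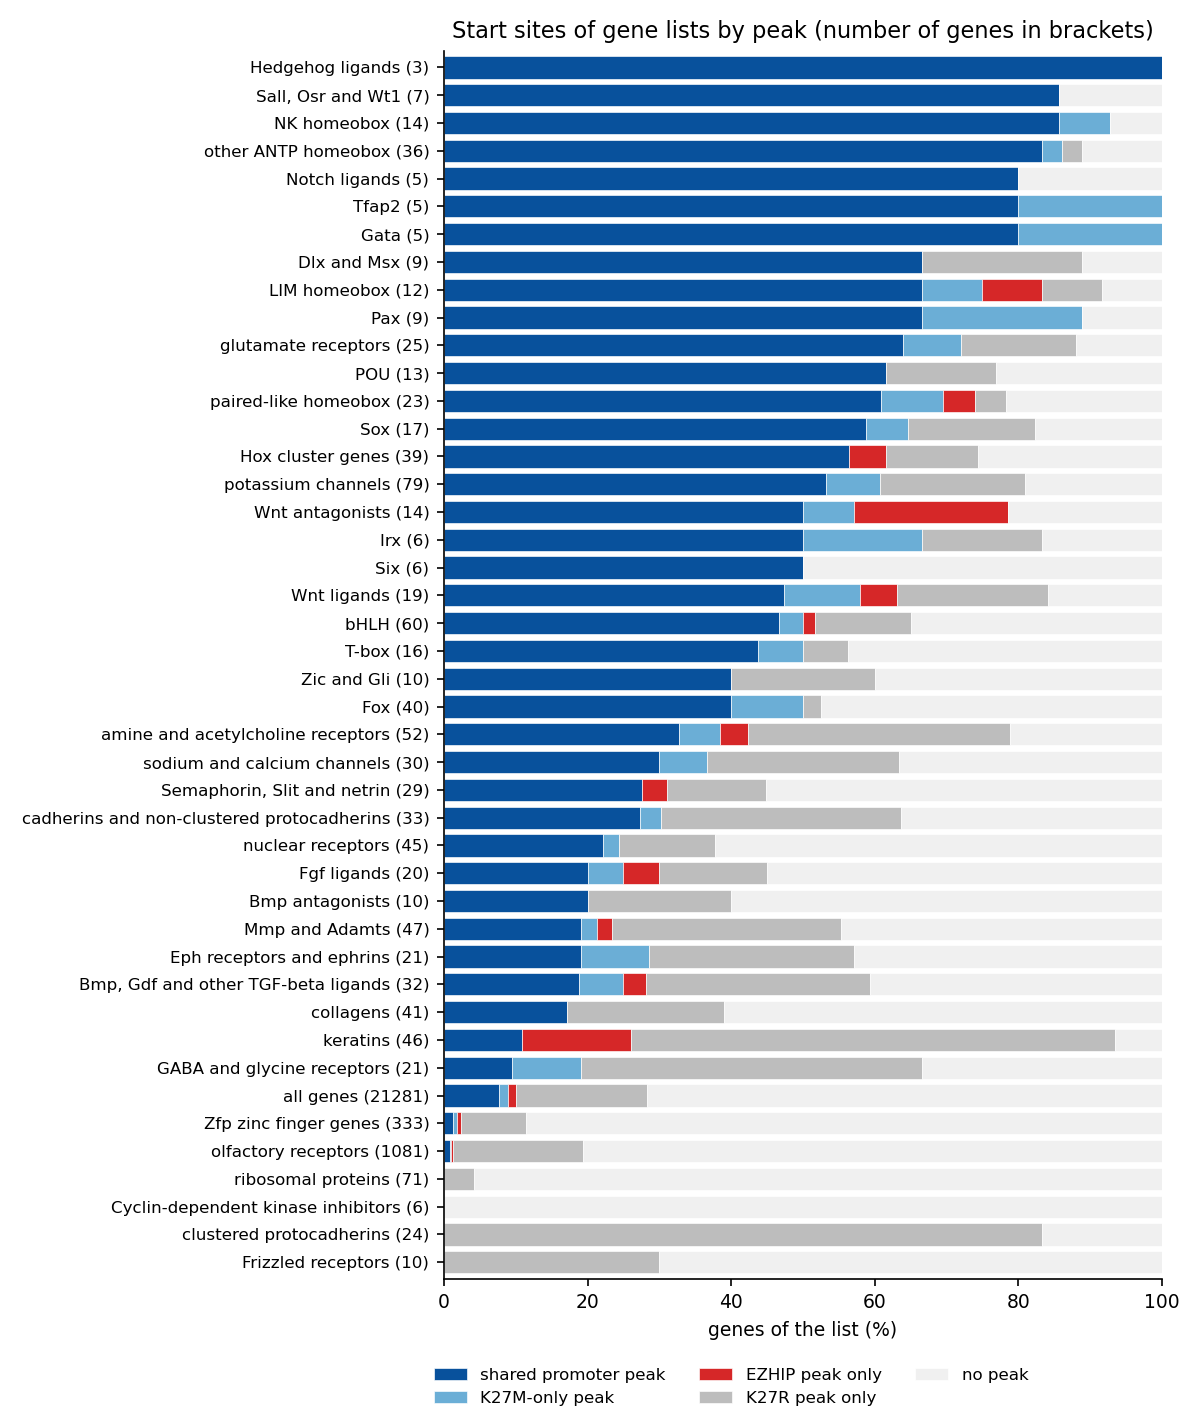
Share of the genes of each list (percent) whose start site lay in a shared promoter peak, a K27M-only peak, an EZHIP peak outside K27M peaks, a K27R peak only, or no peak, with the number of genes in brackets. All 3 Hedgehog ligands, 12 of 14 NK homeobox genes and 6 of 7 genes of the Sall, Osr and Wt1 list lay in a shared promoter peak, while ribosomal proteins, clustered protocadherins and Frizzled receptors had no gene in a shared promoter peak.

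Homeobox and Pax genes, which set positional and organ identity, had the largest share among the larger groups, with 112 of 167 in a shared promoter peak (67.1%). Of 14 NK homeobox genes 12 were present, with Nkx1-1 in a peak of 128.8 kb, Nkx2-3 in 63.0 kb and the heart factor Nkx2-5 in 53.6 kb. Of 36 other ANTP class genes 30 were present, led by Gsx1, Pdx1 and Cdx2 and by Vax2 (161.6 kb, 8 EZHIP peaks over 78.7%). Of 9 Pax genes 6 were present, among them Pax5, a B cell factor (101 kb, 77% under EZHIP), Pax7, a muscle stem cell factor (70.6 kb, 75.4%), and Pax6, an eye and brain factor (51.6 kb, 89.1%). LIM homeobox genes gave 8 of 12, with Lhx1 in a peak of 100.4 kb that EZHIP covered over 94.4% and Lhx2 in one of 67.4 kb covered over 37.1%. POU genes gave 8 of 13, with the inner ear factor Pou4f3 in a peak of 64.6 kb (60.4%) and Pou3f3 in one of 41.4 kb (97.6%). Six3, Six6 and Six2, factors of eye, pituitary and kidney, were 3 of 6 in their family, with peaks of 76.6 kb (62.4%), 57.4 kb (94.4%) and 29.4 kb (46.3%). Paired-like genes gave 14 of 23, with Uncx, Dmbx1 (147.4 kb, 64.7%) and Otp (66.0 kb, 88.5%) among those in the widest peaks.

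The 39 Hox genes divided by place in their clusters; the genes of this paragraph were named after their values were seen. In a shared promoter peak were 22 of them: Hoxa9, Hoxa10, Hoxa11 and Hoxa13, Hoxb6 to Hoxb9 and Hoxb13, Hoxc6 and Hoxc8 to Hoxc13, Hoxd9 to Hoxd13 and Hoxd1. These are mainly the posterior genes, which act toward the tail and the ends of the limbs. Hoxb2 to Hoxb5 had no peak in any list, K27R included, and Hoxa7, Hoxb1, Hoxc4, Hoxc5 and Hoxd4 had a K27R peak only. Hoxd3 and Hoxd8 had an EZHIP peak outside K27M peaks. EZHIP covered 99.3% of the Hoxa peak (54.2 kb), 94.0% of the Hoxc peak (116.8 kb), 93.5% of the Hoxd peak with Evx2 (61.8 kb) and 79.9% of the Hoxb peak (154.6 kb). The start sites of Hoxb6 and Hoxb7 lay between EZHIP peaks.

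These Hox peaks also held microRNA genes that were not part of the rule. Mir196b started in the Hoxa peak, Mir196a-1 in the Hoxb peak and Mir196a-2 in the Hoxc peak, each inside an EZHIP peak. Their mature sequences from RefSeq (GRCm38.p6 build) are shown with the seed, bases 2 to 8, in capitals, because 3 separate shared promoter peaks held genes of 1 seed.
mmu-miR-196a-5p: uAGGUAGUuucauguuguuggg
mmu-miR-196b-5p: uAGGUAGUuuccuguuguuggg
Both share the seed. In all, 31 of 1468 annotated microRNA genes started in a shared promoter peak (2.11%), 23 of them inside an EZHIP peak, and these were named after their positions were seen. They included Mir375 beside Ihh and Cryba2, Mir203 beside Kif26a and Mir1897 beside Sox2. Of 1232 lincRNA genes, 113 started in a shared promoter peak (9.17%, interval 7.62 to 10.9%), among them Six3os1, Nkx2-2as, Dio3os and Hoxa11as. This interval holds the 7.64% found for all protein-coding start sites. The share was 4.88% for processed transcripts and 1.68% for pseudogenes. Inside an EZHIP peak started 96 of the 113 lincRNA genes (85.0%) and 74.2% of the 31 microRNA genes. For protein-coding start sites in shared promoter peaks this was 89.1%.

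Other factor families differed in how many of their genes lay in shared promoter peaks. Of 60 bHLH genes, which drive neurons, muscle and mesoderm, 28 were in a shared promoter peak, with Olig1 (100.2 kb, 95.8% under EZHIP), Olig2 (96.2 kb, 83.4%), Neurog3 (83.2 kb, 58.4%) and Neurog1 (80.6 kb, 60.3%) in the widest. Sox genes gave 10 of 17, with Sox2, a neural progenitor and stem cell factor, in a peak of 40.2 kb covered over 94.0%. Fox genes gave 16 of 40 with the endoderm factor Foxa2 in the widest (54.8 kb, 90.5%), and T-box genes 7 of 16 with T, the mesoderm factor brachyury, in the widest (53.8 kb, 71.7%). Gata genes gave 4 of 5, from Gata4 (103 kb, 55.0%) to Gata2 (7.0 kb, 100%), and Tfap2 genes 4 of 5. The zinc finger group of Sall, Osr and Wt1 gave 6 of 7. Nuclear receptors gave 10 of 45 (22.2%), and 28 of them had no peak in any list.

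Peaks with a listed transcription factor were wider than the others. The 175 such peaks had a median width of 36.2 kb (interval 30.4 to 41.4 kb) against 11.0 kb (interval 10.0 to 11.6 kb) for the other 1211. They made up 57 of the 117 peaks of at least 50 kb (48.7%) and 0 of 182 under 5 kb. More than 1 CpG island lay in 73.1% of them and in 22.5% of the others. The share covered by EZHIP was close, at a median of 70.6% (interval 66.7 to 74.2%) against 73.9% (interval 72.7 to 76.1%). Width is one of the values the rule touches, since a wider K27M peak has more room for a start site and an EZHIP peak.

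Secreted signals differed by family. All 3 Hedgehog ligands lay in shared promoter peaks, namely Ihh (138.2 kb, 93.2% under EZHIP), Shh (27.2 kb, 59.6%) and Dhh (5.8 kb, 86.2%). Of 5 Notch ligands 4 were present, from Dll1 (28.2 kb, 96.5%) to Jag2 (8.2 kb, 68.3%), whose CG-rich promoter is printed above. Wnt ligands gave 9 of 19, with Wnt3 and Wnt9b together in a peak of 88.0 kb and Wnt3a in one of 71 kb. Wnt antagonists gave 7 of 14, among them Sost, Sfrp5 and Sfrp1. None of the 10 Frizzled receptors, which bind Wnt, lay in one, and 3 of them had a K27R peak. Bmp, Gdf and other TGF-beta ligands gave 6 of 32 and Fgf ligands 4 of 20. Semaphorin, Slit and netrin genes, which guide axons, gave 8 of 29, and Eph receptors and ephrins 4 of 21.

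Genes of neuronal signaling were the other large group among the lists, with 86 of 207 in shared promoter peaks (41.5%) and a median peak width of 13.9 kb. Potassium channels gave 42 of 79, with Kcnk18 (94.0 kb), Kcng2 (51.8 kb), Kcna5 (43.2 kb) and Kcna1 (40 kb) in the widest. Glutamate receptors gave 16 of 25, with Grin1, the obligate NMDA receptor subunit, in a peak of 41.4 kb that EZHIP covered over 90.3%. GABA and glycine receptors gave 2 of 21, Gabrd and Gabbr2, although 14 of the 21 had a K27R peak. Receptors of amines and acetylcholine gave 17 of 52, and sodium and calcium channels 9 of 30. Of the receptors with a K27R peak, 72.7% of the glutamate list and 14.3% of the GABA and glycine list were thus in shared promoter peaks. The glutamate list was fixed by symbol and includes metabotropic receptors such as Grm3.

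Adhesion, matrix and other families varied in these counts. Of 24 clustered protocadherins, neuronal adhesion proteins, 20 had a K27R peak and none was in a shared promoter peak, while non-clustered protocadherins and cadherins gave 9 of 33. Keratins, the filaments of epithelia, gave 5 of 46, and 31 had a K27R peak only. Another 7 keratins had an EZHIP peak outside K27M peaks, and 3 had no peak. Collagens gave 7 of 41, with the cartilage collagen Col2a1 in a peak of 18.6 kb, and Mmp and Adamts proteases 9 of 47. Olfactory receptors gave 9 of 1081 (0.833%), although 209 had a K27R peak, Zfp zinc finger genes 4 of 333, and ribosomal proteins 0 of 71. The 6 cyclin-dependent kinase inhibitor genes on the list had no peak.

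A minority of 125 shared promoter peaks held no CpG island. They were narrower than those with one, at a median of 8.2 kb (interval 6.6 to 9.6 kb) against 12.6 kb. EZHIP covered a median of 84.3% of them (interval 77.1 to 87.8%) against 73.0% (interval 71.4 to 74.2%). Their start sites had a median of 6 CG in 300 bp, and 3.20% held a listed transcription factor. The widest, named after their values were seen, lay over the mast cell tryptase cluster with Prss34, Tpsab1 and Tpsb2 (80.4 kb, 97.0% under EZHIP), over 4932438H23Rik (71.4 kb, 84.3%), over Heatr7b1 (56.8 kb, 5.63%), and over Alox12e with Alox15, lipoxygenase genes of myeloid cells and epithelium (47.4 kb, 100%).

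Start sites and sharing went together across the K27M list. Of the 1646 autosomal K27M peaks with a start site, 84.2% met an EZHIP peak (interval 82.4 to 85.9%), against 65.3% of the 1692 without one (interval 63.0 to 67.6%). The former were wider, and a wider peak has more room for both a start site and an EZHIP peak. Where shared, peaks without a start site had a median width of 5.4 kb and an EZHIP cover of 83.3%. K27M-only promoter peaks met no EZHIP peak by definition, and the nearest one lay a median of 298 kb away. No background distance was computed to set beside this. The genes in shared promoter peaks had a median length of 22.0 kb, longer than genes in K27R peaks alone (11.7 kb) and all genes (15.5 kb) and shorter than those in K27M-only peaks (36.6 kb).

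By chromosome, the share of K27M promoter peaks that EZHIP shared went from 77.5% (chromosome 16) to 94.6% (chromosome 13). The median cover by EZHIP was highest on chromosome 15, at 88.4% over 68 peaks, and on chromosome 17, at 87.0% over 78. It lay between 58.1 and 78.2% on the others. As shares of all start sites of the chromosome, those in shared promoter peaks went from 3.43% on chromosome 7 to 10.4% on chromosome 15. Near-identical gene copies also held peaks of uncertain read placement, as at the 12 start sites of the Gm10722 group (chr9:2999801-3038400, 38.6 kb).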

How the data were processed

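H3K27me3 ChIP-Seq peak lists of the K27M, EZHIP and K27R lines were used, with 1 library per group and groups taken from the sample titles. By the study's methods and the submitters' processing notes, reads were aligned with Bowtie 1.0.0 to mm9 and to the fly genome dm6 (reference chromatin), and the authors called broad peaks with MOSAiCS-HMM, with a stated maximum gap of 10000 bp and minimum size of 1000 bp, although neighbors in the deposited lists lie closer than this gap. Whether the fly reads entered the calls is not given in the sources used here. The deposited lists hold positions on a grid of 200 bp bins and no other value, so that only chromosome, start and end were used. Positions are printed counting from 1.

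Overlaps, start sites and CG counts were computed in Python 3.11.15 with numpy 2.4.6 and scipy 1.17.1, on the NCBIM37 (mm9) sequence and GENCODE vM1. CpG islands scored 17 for each CG and -1 for other bases, and were kept if longer than 200 bp with a G+C share of 50% or more and a CG ratio (observed over expected) above 0.6, which gave 25459 on chromosomes 1 to 19. The code was tested on simulated lists and planted islands. No test between lines was possible. Named peaks were the 5 widest, the 5 narrowest, the 5 with most start sites, those at the limits of the rule, those with the highest and lowest EZHIP cover and up to 4 list genes in the widest peaks, except where the text says otherwise. The peaks and gene lists were chosen with earlier results of these data known, and the Tfap2 list was widened to the older symbol Tcfap2 after the annotation was seen. Alternatives were other overlap limits, merged peaks, a minimum width, annotated transcript starts, start sites within 1000 bp, longer islands and another promoter window.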

Additional observations from a re-analysis of the deposited data

How the results depend on the processing

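Of 44 values recomputed under alternatives, 34 moved by less than their counting interval or, for the number of shared promoter peaks, by less than 1.5 times. That number went from 1142 to 1520 in place of 1386. Requiring EZHIP to cover at least 50% of the K27M peak gave 79.9% for the median EZHIP cover, in place of 73.5%, and 94.1% of start sites under EZHIP, in place of 89.1%, since this setting removes the least covered peaks. Merging peaks up to 10000 bp apart gave a median EZHIP cover of 77.3%. Joining EZHIP peaks up to 5000 bp apart gave 8.73% of peaks with more than 1 EZHIP peak. Islands of at least 500 bp were found in 75.5% of peaks, and a window of 150 bp on either side of the start site had a median of 22 CG. With all start sites, the K27M reach was 5.77 kb upstream and 6.79 kb downstream, and the EZHIP reach 3.73 and 4.89 kb, so that the downstream side stayed the longer. No paired analysis was possible because each group had 1 library. Without read counts, weak enrichment below the calling threshold cannot be told apart from absence of the mark.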
